A study of Mus musculus with 30 samples.

Results

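The genes described here encode collagen chains, chosen as all symbols made of Col, a number, the letter a and a number that were measured at both stages of the study. There were 42 such genes among 16553 genes in both tables, and Col28a1 and Col6a6, measured at P0.5 alone, were left out. Their RNA was measured on 30 Affymetrix microarrays of mouse brain tissue. All mice had the CD1 background. Tbr1 mutants were homozygous null (Tbr1 -/-, here KO) and came from crosses of heterozygotes, and the controls were wild type (WT). Tbr1 is a T-box transcription factor of early-born cortical neurons. The groups were neocortex at E14.5 (3 KO and 3 WT arrays) and frontal, parietal and occipital brain at P0.5 (4 KO and 4 WT arrays in each region). The labels gave no sex and no statement that arrays of 1 number came from 1 animal, so the p-values measure the spread between these samples, which may be partly technical. At P0.5 the mean of 3 Y-linked genes was both high and low within every KO number and within WT number 2. For KO number 1 it was 5.087, 9.112 and 9.322 in frontal, parietal and occipital tissue. Such same-numbered arrays were therefore not from 1 animal.

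Collagen chains wind around each other into stiff rods, which the cell secretes or anchors in its membrane. Fibrillar collagens of types I and III form the cables of connective tissue, which in the brain means mainly the fibroblasts of the meninges and of larger vessels. Type IV chains form the sheet of the basement membrane below the pia and around capillaries. Neurons are better known for collagens that stay in the membrane or bind to other matrix, such as Col25a1 and Col19a1. Type III collagen at the pial surface is a ligand of Adgrg1 (GPR56), a receptor through which the cortex keeps its outer boundary. The 42 genes fell into 11 fibrillar, 8 basement membrane, 9 FACIT (fibril-associated), 4 transmembrane, 5 beaded filament (type VI) and 3 short chain network genes and 2 others, Col7a1 and Col26a1. A set of 4 neuron-associated genes (Col19a1, Col23a1, Col24a1 and Col25a1) cut across these classes.

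The stretch before the start of transcription is shown for Col1a2 and Col3a1, because these fibrillar genes were high on the same arrays at both stages. Both are RefSeq windows of 250 bases upstream on GRCm38.p6, for Col1a2 at chr6:4505368-4505617 and for Col3a1 at chr1:45311288-45311537, both on the + strand. Capitals mark the CCAAT box (letters CCAAT) and the TATA box (letters TATAAA).

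Col1a2: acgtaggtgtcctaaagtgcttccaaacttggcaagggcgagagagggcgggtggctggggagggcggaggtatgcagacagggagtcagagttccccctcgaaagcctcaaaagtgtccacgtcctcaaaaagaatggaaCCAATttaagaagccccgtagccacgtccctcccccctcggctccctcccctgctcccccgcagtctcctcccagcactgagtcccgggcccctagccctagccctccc

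Col3a1: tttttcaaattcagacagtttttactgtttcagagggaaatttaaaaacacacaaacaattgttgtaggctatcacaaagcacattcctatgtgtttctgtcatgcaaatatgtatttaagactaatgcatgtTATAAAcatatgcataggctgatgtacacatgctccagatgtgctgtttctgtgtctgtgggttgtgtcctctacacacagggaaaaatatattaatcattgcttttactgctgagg

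The Col1a2 window held 1 CCAAT with its first base at -109 and no TATAAA, and the Col3a1 window held 1 TATAAA with its first base at -117 and no CCAAT. Both strands were searched, and the searched motifs do not overlap. CCAAT stood in 33.8% of 32851 mouse windows of this length and TATAAA in 12.4%. A core of the T-box motif, TCACACC, stood in 3.3% of all windows. Of 36 windows of 33 collagen genes, 13 held CCAAT, 5 held TATAAA and 0 held TCACACC. These are descriptions of letters in a window and say nothing of binding.

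Values are the deposited log2 signals per probe set, where 1 unit is a doubling, and the stages came in separate tables whose levels are not compared. No probe set is set against another. The median signal of an array was 5.12 to 5.15 in the E14.5 table and 7.42 to 7.52 in the P0.5 table. Precision is limited by how many arrays there were. Tbr1 was lower on every KO array than on every WT array within each region at P0.5, and at E14.5 it read 8.69, 7.23 and 7.57 on the KO arrays and 9.36, 8.89 and 9.11 on the WT arrays. The measured cortical neuron markers averaged 8.724 to 10.181 on the E14.5 arrays, with 9.824 to 10.179 on those of P0.5. In whole tissue, fewer cells of a type and less RNA per cell cannot be told apart. A gene was called at an adjusted p under 0.05 (limma, Benjamini-Hochberg over all genes of a comparison, two-sided), and the verbs rose and fell are kept for such genes.

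At E14.5, many fibrillar, type VI and type VIII collagen genes had higher mean signals in KO than in WT neocortex, by up to 6.82-fold for Col1a1, but none passed the test. The difference was positive for 9 of 11 fibrillar, 3 of 5 type VI and both type VIII genes. The difference rested on KO replicates 1 and 2. Among the 42 collagens 0 were called, as were 0 of 18194 genes (0%), and 17 collagens had an unadjusted p under 0.05, against 5.76% of all genes. On 36 of the 42 the difference was positive (all genes 65.5%), with a median of 0.355 on the log2 scale against 0.0564 for all genes. The KO arrays lay above all WT arrays for 16 of the 42, against 7.43% of all genes, and below all WT arrays for 0 (3.74% of all genes).

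The type I chains showed the widest gap. Col1a1, the main chain of type I collagen, read 11.44, 11.10 and 8.09 on the KO arrays and 7.21, 7.50 and 7.61 on the WT arrays. Every KO array was above every WT array, and KO replicate 3 lay much nearer to WT than to the other KO arrays. The difference was 2.77 (SE 0.798, 95% interval 0.907 to 4.63, limma adjusted p = 0.85). Its partner chain Col1a2 read 11.37, 11.64 and 9.32 in KO against 8.51, 8.50 and 8.56 in WT, a difference of 2.25 (SE 0.554). Here too all 3 KO arrays were higher, and the third by the least. Col3a1, the type III chain, read 11.67, 12.39 and 10.73 against 9.90, 10.09 and 10.20, a difference of 1.53 (SE 0.372). The second probe set of Col1a1 gave 0.841, that of Col3a1 1.889, and the other ones of Col1a2 2.861 and 0.077. Of 27 collagens read by several probe sets at E14.5, all probe sets had 1 sign for 20 and both signs for 7.

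The other fibrillar genes were mixed. The median of all 11 fibrillar genes, type I and III chains included, was 0.817. The type V chains Col5a1 and Col5a2, which start and thin the fibrils, differed by 1.56 each, and Col2a1, the cartilage fibril chain, by 0.82. They were chosen after their values were seen. The fibrillar Col24a1 read 3.24, 3.02 and 3.08 in KO against 3.10, 3.14 and 3.16 in WT (difference -0.02, SE 0.0629). Its groups overlapped and it sat near the bottom of the signal range.

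Of the network-forming collagens outside basement membranes, Col6a1, Col6a2, Col6a3, Col8a1 and Col8a2 were also high on the same KO arrays, while Col6a4 and Col6a5 differed by -0.03 each. Col6a2, a chain of the beaded filaments around fibroblasts, read 10.32, 9.48 and 7.80 against 7.61, 7.61 and 7.55, a difference of 1.61 (SE 0.563). Col8a2, which forms sheets such as that below the corneal endothelium, read 6.42, 7.17 and 4.75 against 4.18, 4.36 and 4.48 (1.78, SE 0.536). In both genes the third KO array exceeded the highest WT array by far less than the others did. Col6a3 (1.42) read 6.88 on KO replicate 3, below the highest WT array at 6.96, and Col26a1, a secreted protein with short collagen stretches, differed by 1.58. The second probe set of Col26a1 gave -0.064 at a low signal (means of 3.75 in KO and 3.81 in WT). Col7a1, the anchoring fibril collagen of skin, differed by 0.33 (SE 0.221), with overlapping groups. Col10a1, the collagen of growing cartilage, differed by little (-0.01, SE 0.0834).

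Basement membrane collagens had smaller differences, with a median of 0.299 and a range from -0.106 to 0.727. Col4a1, a main chain of the type IV sheet, read 10.54, 10.96 and 10.56 in KO and 10.00, 9.88 and 10.32 in WT, a difference of 0.62 (SE 0.184). Col4a2, encoded beside it and joined with it in 1 trimer, read 9.42, 9.43 and 8.91 against 8.86, 8.48 and 8.65 (0.59, SE 0.210). For this pair all KO arrays, replicate 3 included, were above all WT arrays. Col15a1, a proteoglycan collagen of vessel and muscle basement membranes, differed by 0.24 (SE 0.168) with overlapping groups.

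Among membrane and neuron-associated genes, Col23a1, a transmembrane collagen, had the smallest unadjusted p of all 42 (4.2e-04). It read 5.93, 5.99 and 5.73 in KO and 5.18, 5.05 and 5.13 in WT, a difference of 0.76 (SE 0.127, limma adjusted p = 0.85). KO replicate 3 stood near the other KO arrays for this gene, and all 3 were above all WT arrays. Its probe sets not used here gave 0.499 and 0.749. Col25a1, a neuronal transmembrane collagen found in amyloid plaques, differed by 0.18 (SE 0.176), and Col19a1, a FACIT collagen made by some neurons, by 0.16. The 9 FACIT genes were all positive, from 0.0725 to 0.488, and 0 of them had separate groups. The low end was Col9a1, whose probe set not used here gave 1.008. Probe sets not used gave -0.028 for Col14a1 and -0.043 for Col19a1.

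**Figure D1:**
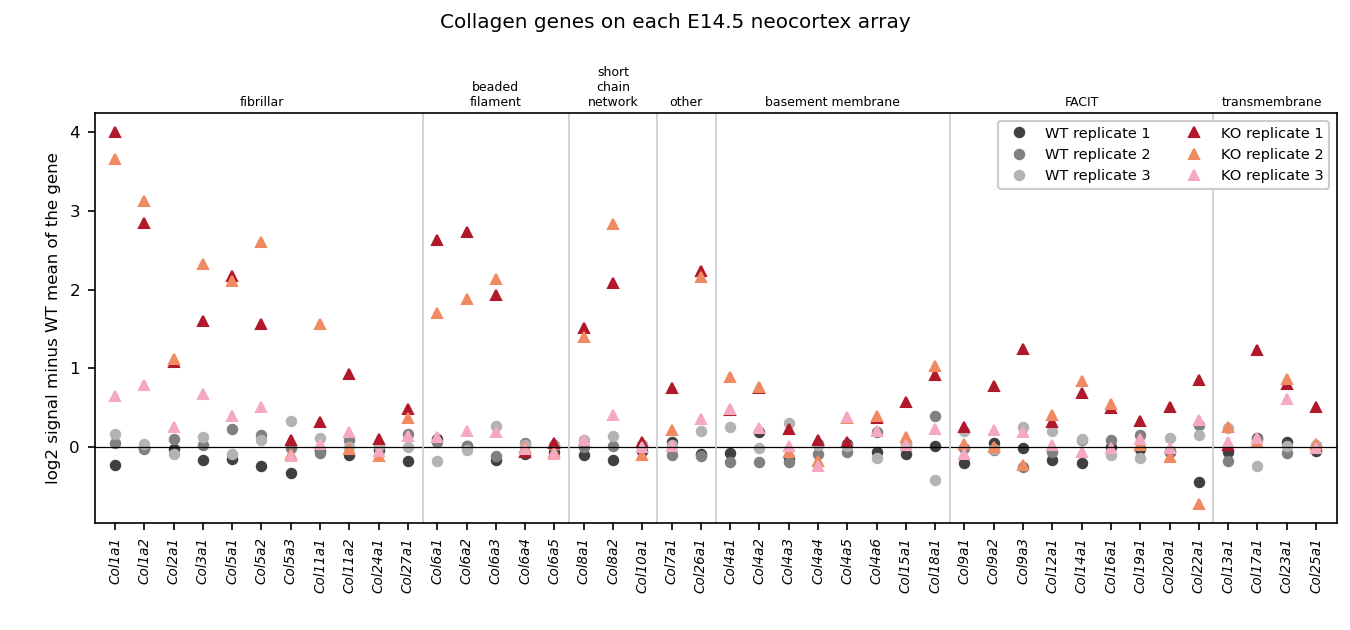
Log2 signal of each of the 42 collagen genes on each E14.5 array minus the gene's WT mean (vertical axis), with genes by structural class along the horizontal axis, circles for the 3 WT and triangles for the 3 KO arrays. KO replicates 1 and 2 reach 4.0 and 3.661 for Col1a1, while KO replicate 3 reaches at most 0.793, for Col1a2.

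Read array by array, 14 of the 42 collagens lay more than 1 log2 unit above the WT mean on KO replicate 1, 14 on KO replicate 2 and 0 on KO replicate 3. Over all genes these shares were 1.94%, 1.66% and 0.29%. KO replicate 1 was above every WT array for 38 collagens (all genes 54.1%), replicate 2 for 27 (29.9%) and replicate 3 for 19 (26.9%). The first 2 KO arrays differed in order, with Col1a1 and Col6a2 higher on replicate 1 and Col3a1 and Col8a2 higher on replicate 2. Without KO replicate 3, limma called 30 of 18194 genes (0.165%) and 7 collagens rose, namely Col1a1 (3.83, adjusted p = 0.00814), Col1a2 (2.98), Col5a1 (2.14), Col6a3 (2.03), Col8a1 (1.46), Col8a2 (2.46) and Col26a1 (2.20). With any other single array left out 0 collagens were called.

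Markers of other cells also differed between the E14.5 arrays. The mean of 9 meningeal fibroblast markers was 7.093, 7.263 and 6.705 on the KO arrays and 6.467, 6.246 and 6.577 on the WT arrays, with 8 of 9 markers positive and 0 called. The mean of 8 mural cell markers was 6.905, 6.88 and 6.291 in KO and 6.285, 6.141 and 6.23 in WT, with 6 of 8 positive, a range of differences from -0.213 to 1.69, and the highest for Acta2, the smooth muscle actin. The mean of 5 choroid plexus markers was 7.787, 7.28 and 7.365 in KO and 6.042, 6.759 and 7.013 in WT, with 4 of 5 positive and all KO arrays, replicate 3 included, above all WT arrays. Means of 9 endothelial markers overlapped, at 6.82, 6.507 and 6.562 in KO and 6.645, 6.183 and 6.592 in WT. Their median difference was 0.066, against 0.0564 for all genes. Means of 3 red blood cell markers were 6.838, 6.868 and 6.243 in KO and 6.652, 6.673 and 6.621 in WT. Cortical neuron markers were lower in KO, at 9.309, 8.724 and 9.25 against 10.181, 9.49 and 9.635. Xist, which marks female tissue, read 9.58, 10.17 and 5.07 in KO and 5.01, 10.76 and 5.41 in WT. The KO arrays with high Xist were those with high type I collagen, and KO replicate 3 was low in both. Within KO, the split between these arrays therefore cannot be told apart from sex. The only WT array with high Xist had Col1a1 at 7.50. With the fibroblast mean as a covariate, added after seeing the data, the collagen median was 0.0549, with 25 positive and 17 negative. That mean was higher on every KO array than on every WT array, so the fit cannot fully part it from genotype. The part of other cells in the collagen difference was not tested.

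Genes that make and handle collagen, from lists chosen with earlier results known, had 0 calls at E14.5. Of 16 biosynthesis genes 14 were positive, with a median of 0.312, and the collagen chaperone Serpinh1 read 10.97, 10.79 and 9.79 in KO against 9.82, 9.88 and 9.40 in WT. Of 10 processing and crosslinking genes 7 were positive and 3 negative, with a median of 0.186 and a range from -0.661 to 2.03. The highest was Pcolce, which speeds removal of the procollagen end, at 8.49, 8.46 and 6.16 against 5.62, 5.61 and 5.79 (2.03, SE 0.584). All 7 collagen-binding matrix proteins were positive, with a median of 0.887, as were all 11 basement membrane partners, with a median of 0.324. The 9 collagen receptors had a median of 0.0656 and a range from -0.0834 to 0.198.

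At P0.5, over the 3 regions, Col15a1 fell by 0.18 on the log2 scale, a 1.14-fold decrease, and was the single collagen called, against 7.46% of 19938 genes called (2.75% lower, 4.71% higher). Of the 42 collagens 37 had a negative difference (43.4% of all genes were positive), with a median of -0.0775 against -0.0135 for all genes. The median was -0.0338 and -0.0483 without number 4 or 1 in WT and -0.132 without number 2 in WT, and with the mean of 3 Y-linked genes as a covariate it was 0.00389, with 22 positive and 20 negative. In frontal tissue 41 of 42 were negative and 1 was called (all genes 7.52%, with 2.81% lower and 4.7% higher), in parietal tissue 31 were negative and 0 called (1.81%), and in occipital tissue 19 were negative and 0 called (1.34%). With 0 called, 1 collagen each had an unadjusted p under 0.05 in parietal and occipital tissue, against 9.32% and 10.8% of all genes. The collagen medians were -0.205, -0.0437 and 0.00444 in frontal, parietal and occipital tissue, and those of all genes -0.0337, -0.0105 and 0.0121. Of all genes 43.7%, 45.7% and 54.1% were positive there, in the same order. Without WT replicate 4 the frontal median was -0.121. The parietal direction rested on KO replicate 2, without which the median was 0.034 with 27 positive and 15 negative, and with any other array left out it ran from -0.0795 to -0.00224. The occipital median ran from -0.0357 to 0.0443 with an array left out, so it had no settled sign.

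Col15a1 in frontal tissue read 7.58, 7.70, 7.61 and 7.62 in KO and 7.78, 7.87, 8.17 and 8.0 in WT. All 4 KO arrays were below all 4 WT arrays, as for 4 collagens (Col10a1, Col15a1, Col19a1 and Col25a1) and 6.5% of all genes, while 0 collagens had all KO arrays above all WT arrays (6.42% of all genes). The frontal difference was -0.33 (SE 0.0794, 95% interval -0.490 to -0.164, limma adjusted p = 0.0108). In parietal tissue Col15a1 read 7.57, 7.51, 7.68 and 7.78 in KO and 8.01, 7.78, 7.84 and 7.79 in WT (-0.22, SE 0.0794, adjusted p = 0.228). The KO arrays were mostly lower there, with KO replicate 4 inside the WT range by a very small margin. In occipital tissue it read 7.53, 7.63, 7.65 and 7.68 in KO and 7.66, 7.64, 7.57 and 7.60 in WT, with no gap (0.00137, SE 0.0794). Over regions the difference was -0.18 (SE 0.0476, adjusted p = 0.0302), and the call was kept in 13 of 21 alternatives run, while the frontal call was kept in 17 of 20. Without WT frontal replicate 3 the frontal value was -0.26 (adjusted p = 0.0619), and with only the frontal arrays in the fit the adjusted p was 0.0784. With all arrays of a genotype that carry 1 number left out, the adjusted p over regions was 0.116, 0.0716 and 0.0591 without number 1, 2 or 3 in KO, and 0.0696 and 0.0935 without number 1 or 3 in WT.

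The frontal groups also differed in their sex mix. The mean of 3 Y-linked genes was 5.087 to 5.99 on the KO frontal arrays and 8.987 to 9.146 on the WT frontal arrays, so genotype and sex cannot be told apart within frontal tissue. Across all 24 arrays, with that mean as a covariate, the frontal Col15a1 difference was -0.33 and was no longer called (adjusted p = 0.189). Over regions it was -0.21 (adjusted p = 0.95), and the collagen median in frontal tissue was -0.102, with 33 of 42 negative. The collagens lay mostly in the middle of the signal range when genes were split into 4 equal bins by level. The lower middle bin held 20, the upper middle bin 21 and the lowest bin 1, Col10a1. In the lower middle bin the median gene deviated from its mean over all 24 arrays by -0.088 to 0.028 on the KO frontal arrays. On the WT frontal arrays that deviation was 0.005 to 0.189. Its part in the collagen median was not tested.

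**Figure D2:**
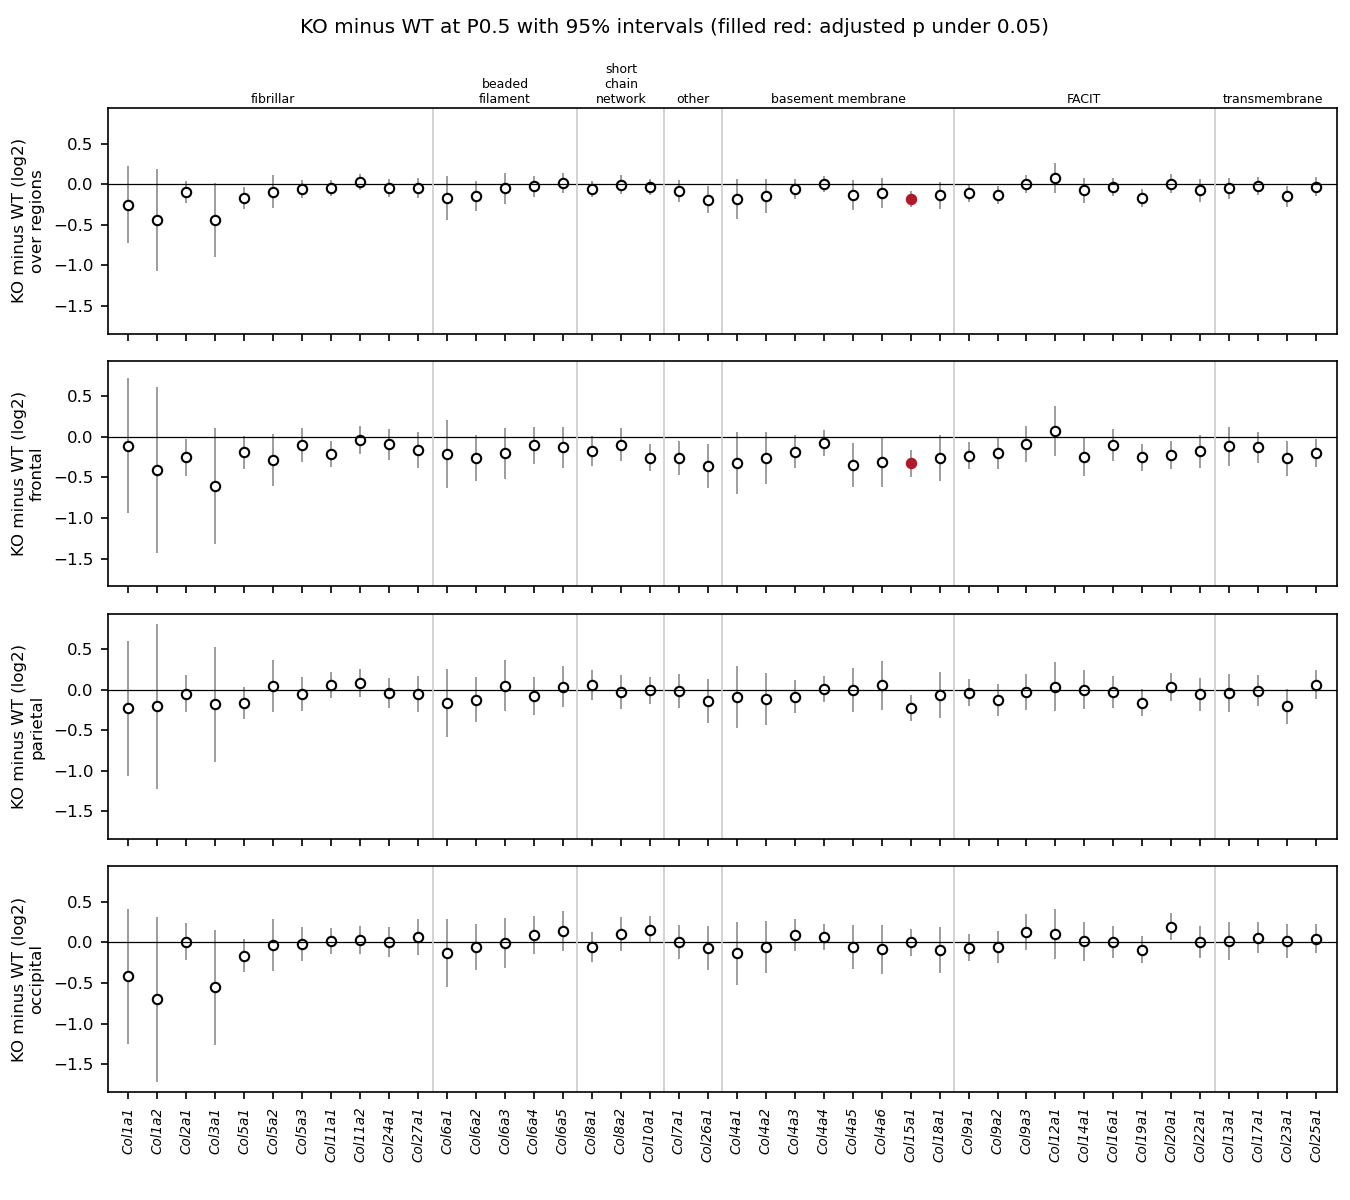
KO minus WT on the log2 scale (vertical axis) with 95% intervals for the 42 collagens at P0.5, over regions and in frontal, parietal and occipital tissue from top to bottom, with filled red points for adjusted p under 0.05. Col15a1 is filled over regions and in frontal tissue, and the intervals of Col1a1, Col1a2 and Col3a1 are the widest in each panel.

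The type I and III chains had no call in any P0.5 comparison, and arrays of 1 group lay far apart. Col1a1 in frontal tissue read 8.13, 9.03, 10.55 and 7.98 in KO and 9.49, 8.39, 8.43 and 9.82 in WT, with the highest array in KO and overlapping groups. Its occipital arrays read 8.74, 8.27, 8.26 and 8.45 in KO and 9.60, 8.46, 8.05 and 9.28 in WT. Its parietal arrays read 8.11, 7.87, 8.17 and 8.19 in KO and 8.99, 8.02, 8.15 and 8.11 in WT. The high values thus sat on WT replicates 1 and 4 in frontal and occipital tissue, on WT replicate 1 in parietal tissue, and on KO frontal replicates 2 and 3. The difference over regions was -0.25 (SE 0.223), and in frontal tissue it was -0.11 (SE 0.402). The frontal value turned to 0.16 without WT replicate 4, 0.05 without WT replicate 1, 0.16 without KO replicate 1 and 0.21 without KO replicate 4.

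Col1a2 repeated this array by array. It read 8.04, 9.16, 10.31 and 7.84 in KO frontal and 9.99, 8.32, 8.21 and 10.47 in WT frontal tissue, and 9.01, 8.01, 8.01 and 8.12 in KO occipital against 10.00, 8.49, 7.85 and 9.62 in WT occipital tissue. KO occipital replicate 1 stood above its group, and the WT arrays 1 and 4 were again the highest. Col3a1 read 7.45, 8.51, 8.26 and 7.37 in KO frontal and 9.02, 7.79, 7.66 and 9.55 in WT frontal tissue (-0.61, SE 0.345, adjusted p = 0.246). Over regions Col3a1 differed by -0.45 (SE 0.213, adjusted p = 0.273), and without WT replicate 3 by -0.67 (adjusted p = 0.0248).

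**Figure D3:**
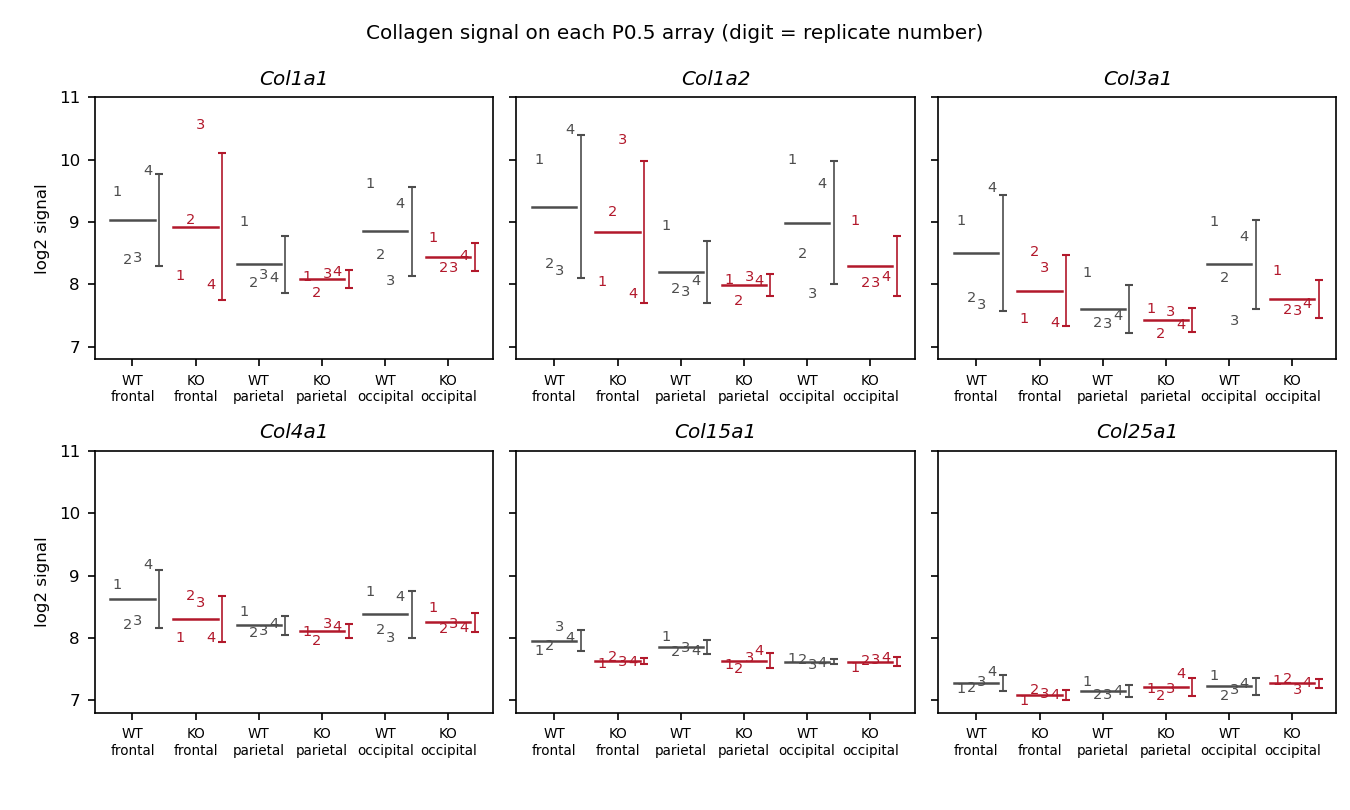
Log2 signal (vertical axis) of 6 collagen genes on the P0.5 arrays by genotype and region, with a digit for each replicate, a line at the group mean and a bar for the SD (n = 4). Col1a1, Col1a2 and Col3a1 spread over more than 1 log2 unit in frontal tissue of both genotypes, and Col15a1 and Col25a1 stay within a narrow band.

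The pooled SD within groups at P0.5 was 0.83 for Col1a2, 0.672 for Col1a1, 0.574 for Col3a1 and 0.304 for Col4a1, against a median of 0.136 over all genes. It was 0.103 for Col15a1 and 0.114 for Col25a1. The mean of the 9 fibroblast markers was 8.937, 7.102, 6.767 and 9.521 on the WT frontal arrays and 7.104, 8.591, 8.075 and 6.843 on the KO frontal arrays. In occipital tissue it was 8.855, 7.417, 6.773 and 8.52 in WT and 8.139, 7.064, 7.293 and 7.192 in KO. These are the arrays on which the type I and III chains were high, except that KO frontal replicate 3 led in type I collagen and replicate 2 in the markers. The array with the highest fibroblast mean was also the highest for Col3a1, Col4a1 and Col4a5 in 5 of 6 groups, and for Col1a1 and Col1a2 in 4. The neuron-associated Col25a1 also matched in 4, and Col19a1 was the only collagen with 0. Among all collagens, 18 matched in 3 groups, 11 in 4 and 3 in 5, so the type I chains were not set apart by this count. In parietal tissue the fibroblast mean was 7.856, 6.788, 6.709 and 6.699 in WT and 7.022, 7.165, 6.944 and 6.979 in KO. There the match failed in KO, where replicate 2 was highest in the markers but lowest in Col1a1 (7.87), Col1a2 (7.73) and Col3a1 (7.20). Of the 9 fibroblast markers 0 were called in any P0.5 comparison, and over regions 7 were negative while Lum (0.63) and Dcn (0.35) were positive. With the fibroblast mean as a covariate, added after seeing the data, 3 collagens fell over regions, against 10.8% of all genes called in that fit. They were Col15a1, Col19a1 and Col3a1, the last by 0.24 (limma adjusted p = 0.00305), and the collagen median was -0.0459. The part of such cells in the differences was not tested.

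**Figure D4:**
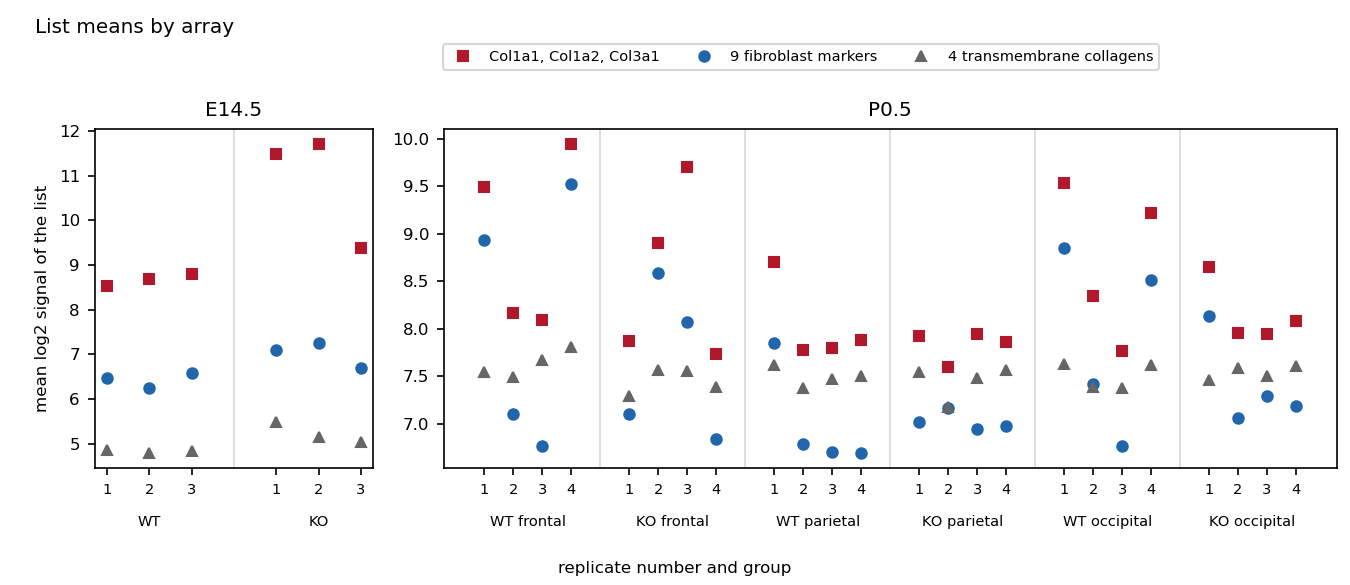
Mean log2 signal (vertical axis) of Col1a1, Col1a2 and Col3a1 (squares), of 9 fibroblast markers (circles) and of 4 transmembrane collagens (triangles) on each array (horizontal axis), to be compared between arrays within a list and a stage. In WT frontal tissue the squares stand at 9.498 and 9.946 on replicates 1 and 4 and the circles at 8.937 and 9.521, while the triangles span 7.495 to 7.806.

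Among basement membrane and membrane collagens, Col4a1 read 8.0, 8.68, 8.55 and 7.99 in KO frontal and 8.86, 8.20, 8.28 and 9.17 in WT frontal tissue (-0.32, SE 0.187, adjusted p = 0.257). The same arrays were high as for type I collagen, over a smaller range. Col4a2 differed by -0.14 over regions (SE 0.0969). All 8 basement membrane collagens were negative over regions, with a median of -0.137, and 1 of them fell. Of all genes 43.4% were positive and 2.75% fell over regions. The endothelial markers, which share vessels with the basement membrane class, had 8 of 9 negative over regions and 1 fall, that of Kdr (-0.66). In frontal tissue, where genotype and sex cannot be told apart, Tie1 (-0.45) and Kdr (-0.89) fell, against 2.81% of all genes. Endothelial means were 8.834, 8.132, 8.178 and 9.151 in WT frontal and 7.902, 8.459, 8.285 and 7.888 in KO frontal tissue, and their part was not tested.

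Of the neuron-associated collagens 0 were called in frontal tissue or over regions, and Col19a1 had the smallest adjusted p. Col19a1 read 7.32, 7.18, 7.27 and 7.26 in KO frontal and 7.39, 7.65, 7.55 and 7.44 in WT frontal tissue. The groups were separate by a narrow margin, with a difference of -0.25 (SE 0.0803, limma adjusted p = 0.053). Over regions Col19a1 differed by -0.17 (SE 0.0512, adjusted p = 0.066), and 5 of 21 alternatives called it. Col23a1 differed by -0.15 over regions (SE 0.0618, adjusted p = 0.19), with the opposite sign to E14.5. Col25a1 read 6.99, 7.17, 7.09 and 7.08 in KO frontal and 7.18, 7.19, 7.30 and 7.46 in WT frontal tissue (-0.20, SE 0.0855, adjusted p = 0.136). Its KO arrays were just below the WT arrays there, and in parietal (0.06) and occipital tissue (0.05) the sign was positive. Col24a1 differed by -0.04 over regions. Col7a1 (-0.26, adjusted p = 0.112) and Col26a1 (-0.36) were negative in frontal tissue without a call.

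The comparison of frontal with occipital tissue asked whether collagens follow the long axis of the cortex. In WT 2 collagens rose towards the front, Col15a1 by 0.34 (SE 0.0794, limma adjusted p = 0.0132) and Col10a1 by 0.31 (SE 0.0811, adjusted p = 0.0254), against 6.03% of all genes called (2.26% higher). The WT frontal arrays are the ones also used in the frontal KO comparison, so the Col15a1 values in both rest on the same 4 arrays. Of the 42 collagens 40 were positive in WT (54.7% of all genes), with a median of 0.143 against 0.025 for all genes. Frontal arrays lay above all occipital arrays for 3 collagens (Col10a1, Col15a1 and Col20a1), against 6.21% of all genes.

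Col10a1 read 6.62, 6.62, 6.70 and 6.82 in WT frontal and 6.47, 6.41, 6.39 and 6.27 in WT occipital tissue. The groups were separate, and the call was kept in 10 of 20 alternatives. Its adjusted p was 0.0558 without WT frontal replicate 3, 0.0988 without WT frontal replicate 4, and 0.0605, 0.0649 and 0.0648 without WT occipital replicates 2, 3 and 4. The difference was 0.20 (adjusted p = 0.062) after quantile normalization and 0.18 (adjusted p = 0.0893) after cyclic loess, which was added after seeing the data. Col10a1 was the 1 collagen in the lowest bin of level, where the median gene deviated from its mean by -0.016 to 0.231 on the WT frontal arrays. On the WT occipital arrays that deviation was -0.063 to 0.004. Col15a1 kept its call in 18 of 20, and without WT frontal replicate 3 it was 0.26 higher (adjusted p = 0.0596). Without WT frontal replicate 4 the collagen median was 0.0592, and without WT occipital replicate 3 it was 0.0865. Col20a1, a FACIT collagen, read 7.64, 7.60, 7.75 and 7.99 against 7.52, 7.41, 7.40 and 7.58 (0.27, SE 0.0833, adjusted p = 0.053).

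In KO tissue 0 collagens were called between frontal and occipital tissue, against 3.22% of all genes, and 2 had an unadjusted p under 0.05. Of the 42 collagens 29 were negative (43% of all genes were positive), with a median of -0.0477 against -0.0221 for all genes. That direction was not stable. With the Y-linked covariate 31 were positive and 11 negative (median 0.0505), without KO frontal replicate 1 the signs were 21 and 21 (median -0.00101), and with any other array left out the median ran from -0.0936 to -0.0191. Col15a1 differed by 0.00676 (SE 0.0794) and Col10a1 by -0.11 (SE 0.0811) there. The type I chains had the largest positive values, 0.49 for Col1a1 (SE 0.402) and 0.55 for Col1a2 (SE 0.495), and Col1a1 was at -0.05 without KO frontal replicate 3. Col11a1 was the 1 collagen with KO frontal arrays below all KO occipital arrays (5.33% of all genes). It was named after its values were seen. The Y-linked mean was 5.885 to 9.322 on the KO occipital arrays, so the sex mix moved with this comparison too.

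The interaction test set the frontal to occipital step in KO against that in WT and called 0 of 42 collagens, against 0.416% of all genes, while 4 had an unadjusted p under 0.05 (20.1% of all genes). The differences of Col10a1 (-0.42, SE 0.115, adjusted p = 0.101), Col20a1 (-0.42, SE 0.118, adjusted p = 0.11) and Col15a1 (-0.33, SE 0.112, adjusted p = 0.159) were the ones with the smallest p. The values were negative for 40 of 42 (45.2% of all genes were positive), with a median of -0.195 against -0.0323 for all genes. The median was -0.108 without WT frontal replicate 4 and -0.0998 with the Y-linked covariate. The same 16 frontal and occipital arrays enter the comparisons above. Without KO occipital replicate 1, Col10a1 passed (-0.49, adjusted p = 0.0444).

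**Figure D5:**
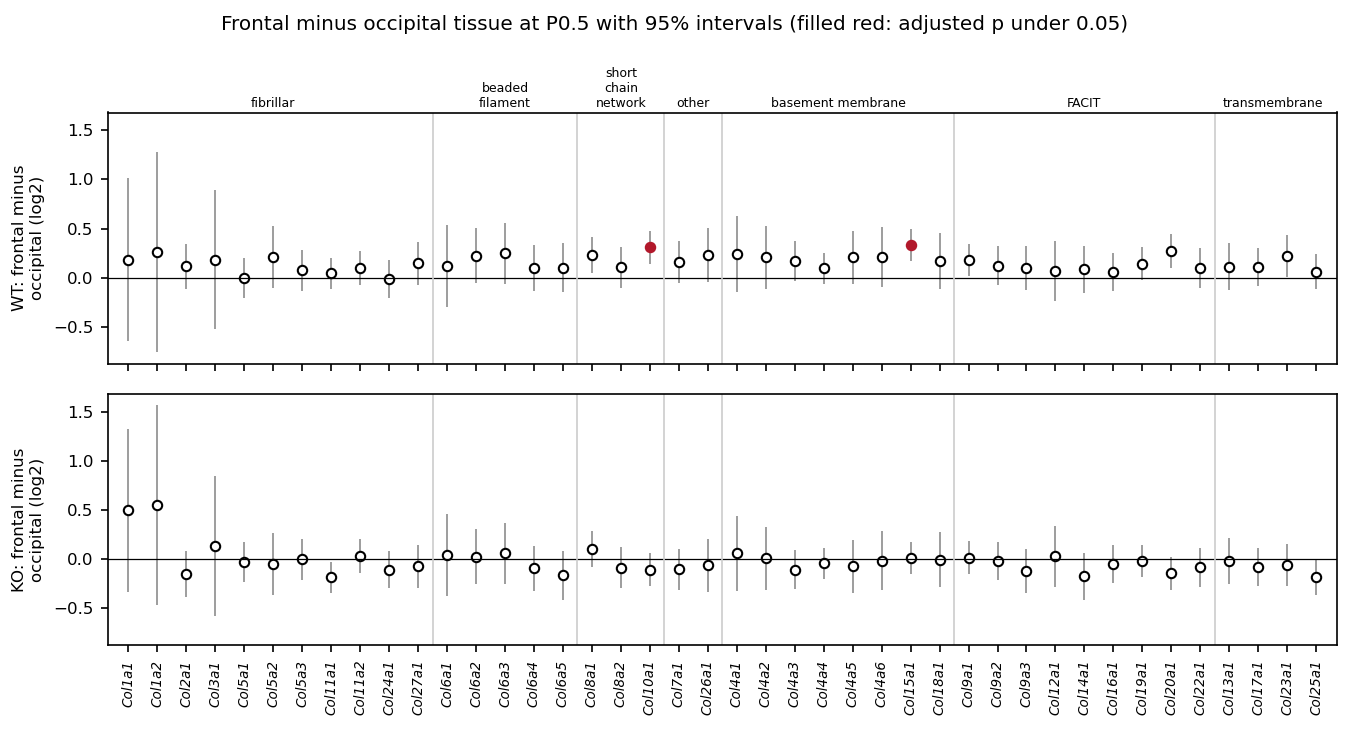
Frontal minus occipital difference on the log2 scale (vertical axis) with 95% intervals for the 42 collagens in WT (upper panel) and KO tissue (lower panel), with filled red points for adjusted p under 0.05. Col10a1 and Col15a1 are filled in WT, where 40 of 42 points lie above 0, and 13 of 42 do so in KO.

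Among the genes that act on collagen, the fall with the smallest adjusted p at P0.5 was that of Adamts3, a protease that trims the amino end of procollagens and also cuts reelin. It read 9.52, 8.68, 9.23 and 9.47 in KO frontal and 10.34, 10.71, 10.90 and 10.56 in WT frontal tissue. Every KO array was below every WT array there, and the differences were -1.40, -1.06 and -1.44 in frontal, parietal and occipital tissue. Over regions Adamts3 fell by 1.30 (SE 0.0714, limma adjusted p = 1.57e-07). Tll2, also on the processing list, fell by 0.20, and these were 2 of 11 genes of that list called over regions. Over all genes the shares were 2.75% lower and 4.71% higher, against which this count and those of the lists that follow are to be read. Of 16 biosynthesis genes 2 fell, P4ha1, a prolyl hydroxylase subunit, by 0.28 and Colgalt2, which adds galactose to collagen, by 0.25. Serpinh1 differed by -0.19 (adjusted p = 0.319). In parietal tissue P4ha1 fell by 0.46 (adjusted p = 0.00852, but 0.0562 without KO replicate 4 and 0.0571 without WT replicate 3). The related P4ha3 was lower in frontal than in occipital KO tissue (-0.38, adjusted p = 0.00822). With the Y-linked mean as a covariate this was -0.30 and no longer called (limma adjusted p = 0.225).

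Of 9 collagen receptors 1 rose over regions (4.71% of all genes did), Adgrg1, the receptor of type III collagen. It read 8.87, 8.61, 8.93 and 8.88 in KO frontal and 8.84, 8.36, 8.36 and 8.21 in WT frontal tissue, with 1 WT array inside the KO range. It was higher by 0.33 over regions (SE 0.0681, adjusted p = 0.00748) and by 0.38 in frontal tissue (adjusted p = 0.0241). The collagen receptor Ddr1 rose in frontal tissue too (0.24, adjusted p = 0.0437). With the Y-linked mean as a covariate, both frontal calls were lost (limma adjusted p = 0.327 for Adgrg1 and 0.37 for Ddr1). Ddr1 was also not called after quantile normalization (adjusted p = 0.125) or with only the frontal arrays in the fit (adjusted p = 0.13). Adgrg1 was lower in frontal than in occipital tissue in both genotypes, with -0.71 in WT and -0.70 in KO.

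Of 7 collagen-binding matrix proteins 1 rose over regions (4.71% of all genes), Fn1, fibronectin, by 0.74 (SE 0.134, adjusted p = 0.00288). Its frontal arrays read 10.15, 10.58, 10.65 and 10.43 in KO and 9.99, 8.81, 8.76 and 10.37 in WT, where the WT arrays high in type I collagen were also high in Fn1. All 11 basement membrane partners were negative over regions, and 1 fell (2.75% of all genes), the laminin chain Lamb1, by 0.38. Of 8 collagenases and inhibitors, Timp3, a matrix-bound inhibitor of metalloproteases, fell by 0.46 (SE 0.0622) and Mmp9 by 0.31. With the Y-linked mean as a covariate, Adamts3 kept its call and the calls of Colgalt2, P4ha1, Tll2, Adgrg1, Fn1, Lamb1, Timp3 and Mmp9 over regions were lost. The differences were then -0.27 for P4ha1, 0.35 for Adgrg1, 0.86 for Fn1 and -0.45 for Timp3, against -0.28, 0.33, 0.74 and -0.46 without the covariate, and -0.04 for Lamb1. With the mean of the 3 regional contrasts, the same covariate ended the calls of Colgalt2, Tll2 and Lamb1, and the other 5 were kept. Some calls rested on single arrays. Over regions, Tll2 had an adjusted p from 0.0524 to 0.0834 without KO replicate 1 or 4 or WT replicate 1 or 4, Lamb1 0.0583 without KO replicate 4, and Mmp9 0.0709 and 0.0705 without KO replicates 1 and 4. In frontal tissue Adgrg1 had 0.05 to 0.119 and Ddr1 0.0687 to 0.15 without any 1 array other than KO replicate 2 and WT replicate 1. Fn1 had 0.059 there without WT replicate 3. The Y-linked covariate also ended the frontal calls of Fn1 (limma adjusted p = 0.188) and Timp3 (0.194).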

How the data were processed

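RNA of 30 brain samples was measured on Affymetrix arrays. The values are log2 signals per probe set that the authors deposited, made with RMA in Expression Console 1.1 per the submitters' processing notes, as separate tables for E14.5 and P0.5. Gene 1.0 ST is the array in every sample's protocol label, yet the E14.5 probe-set names are of an older 3' type.

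Genes were named from the platform annotation, through probe sets with 1 gene symbol (34958 of 45101 at E14.5 and 21789 of 35557 at P0.5). The probe set with the highest mean stood for a gene, with no filter on dim genes. Groups came from the labels. Differences were tested with limma 3.58.1 in R 4.3.3 (lmFit, eBayes with an intensity trend), with 6 arrays at E14.5 and all 24 at P0.5. For the comparison over regions, the 3 arrays of a genotype that carry 1 number were averaged first, which gave 4 values a genotype. In every KO number and in WT number 2 the average joined arrays with high and low Y-linked means, and so did its Y-linked covariate. The regional contrasts came from 1 fit with 6 groups. P-values were adjusted over all genes of a comparison, and the steps were tested on simulated data.

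The members and gene lists were chosen with earlier results of these data known. Named were every collagen called in a comparison, the 2 members of each class with the smallest unadjusted p in any comparison, the fixed genes Col1a1, Col1a2, Col3a1, Col4a1, Col4a2, Col19a1, Col23a1, Col24a1 and Col25a1, and up to 6 called partners a list and comparison. Other members named were chosen after their values were seen.

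Same-numbered arrays deviated together at E14.5 (correlations 0.125 to 0.445 over genes), and all 3 pairs were closest to their own number. At P0.5 no groups compared here had all 4 pairs over 0.1, with the nearest in WT frontal and occipital tissue (0.058 to 0.393, 3 of 4 over 0.1), so the numbers were not taken as pairs. In WT parietal and occipital tissue, which were not compared, all 4 were over 0.1 (0.124 to 0.276). Alternatives are listed with their effect in the closing section. The fibroblast covariate, cyclic loess, leaving out both drifting arrays and the mean of the 3 regional contrasts fitted beside the Y-linked mean were chosen after seeing the data.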

Additional observations from a re-analysis of the deposited data

Results flagged for a closer look

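Of 102 checks of groups of 4 arrays, 8 found an array far from the other 3, where chance gives about 1 in 20. On parietal WT replicate 1 the type I and III chains were high together, with Col1a1 at 8.995 (others 8.017 to 8.153), Col1a2 at 8.932 (others 7.878 to 8.058) and Col3a1 at 8.179 (others 7.366 to 7.499). On occipital KO replicate 1, Col1a2 stood at 9.012 (others 8.014 to 8.122) and Col3a1 at 8.217 (others 7.579 to 7.678). Parietal KO replicate 2 was low for Col10a1, at 6.301 (others 6.471 to 6.486), and for Col23a1, at 7.346 (others 7.734 to 7.768). Parietal WT replicate 2 was low for Col10a1, at 6.393 (others 6.458 to 6.467).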

How the results depend on the processing

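No alternative other than leaving out an array called a collagen at E14.5. The count of collagens called higher there was 0 to 7 when each array was left out in turn. It was 7 without KO replicate 3, where 0.165% of all genes were called.

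The count called lower over regions, 1, became 2 without the dimmest 30% of genes, 2 with the mean of the 3 regional contrasts and 2 without both arrays that drifted most with signal level (frontal WT 4 and parietal KO 2), 3 with the fibroblast covariate, and 0 with the Y-linked covariate, in either form. It was 0 to 3 with a replicate number left out (0 without KO 1, 2 or 3, and 3 without WT 2). The share of all genes called moved too, from 7.46% to 10.9%, 9.48%, 10.9% and 10.8%, in the order given, where 2 or 3 collagens were called. It was 0.356% with the Y-linked covariate, and 4.13% with that covariate in the mean of the 3 regional contrasts. Without KO 1, 2 or 3 it was 4.83%, 6.66% and 5.86%, and without WT 2 it was 7.49%. The frontal count, 1, became 2 without the dimmest 30%, 3 with no intensity trend, 3 with array weights, 5 with the fibroblast covariate, 2 without both drifting arrays, and 0 with the Y-linked covariate or only the arrays compared. It was 0 to 5 with an array left out (0 without WT 3, 5 without WT 2, 4 without KO 2, 3 without WT 1). The frontal share of all genes called was 7.52% in the main fit, then 10.5%, 7.26%, 13.1%, 7.54% and 5.1% in the order given. With the Y-linked covariate it was 1.24%, and with only the arrays compared 3.45%. Without WT 3, WT 2, KO 2 or WT 1 it was 4.73%, 9.27%, 11.1% and 12.3%. The WT frontal minus occipital count, 2, became 0 with only the arrays compared, 1 without both drifting arrays and 3 with the fibroblast covariate. It stayed 2 without the dimmest 30%, after quantile normalization and after cyclic loess, but with Col20a1 called and Col10a1 not. It was 0 to 4 with an array left out (0 without frontal 3, 4 without frontal 1, 1 without frontal 4, occipital 2 or occipital 3). Of all genes 6.03% were called in the main fit and 1.44% with only the arrays compared. Without both drifting arrays 3.92% were called, and with the fibroblast covariate 7.79%. Without frontal 3, frontal 1, frontal 4, occipital 2 or occipital 3 the share was 3.84%, 9.61%, 2.73%, 2.21% and 2.79%. The interaction count, 0, became 2 with array weights and was 0 to 1 with an array left out (1 without KO occipital 1). Of all genes 0.416% were called in the main fit, 2.66% with array weights and 0.411% without KO occipital 1.

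With the replicate block, 0 collagens were called over regions, where Col15a1 had adjusted p = 0.0576 in limma, 3 in WT frontal minus occipital tissue, and 0 at E14.5, where the pairing holds. It ended no other collagen call. With the block 6.51% of all genes were called over regions and 5.79% in WT frontal minus occipital tissue.

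Signs are given one by one only for collagens named by the rule, and many others turned too. At E14.5 the fibroblast covariate was itself higher on every KO array than on every WT array. With the fibroblast covariate 25 collagens were positive at E14.5 in place of 36, and among the named ones the sign turned for Col6a3 (-0.3258), Col7a1 (-0.02118), Col8a2 (-0.1501), Col26a1 (-0.08274) and Col10a1 (0.06179), and in frontal tissue for Col1a1 (0.1796). With the Y-linked covariate 22 were positive over regions in place of 5, and of the named ones it turned for Col1a1 (0.008082), Col1a2 (0.1065) and Col4a1 (0.0467), and in frontal tissue for Col1a1 (0.02016). Without both drifting arrays 13 were positive over regions in place of 5 and 27 in parietal tissue in place of 11. Of the named ones it turned in frontal tissue for Col1a1 (0.1552) and Col1a2 (0.001185) and in WT frontal minus occipital tissue for Col1a2 (-0.1518). None of these named differences was called. With an array left out, E14.5 values ran from -0.04351 to 0.03501 for Col10a1, from -0.06344 to 0.2563 for Col20a1 and from -0.08168 to 0.0301 for Col24a1. Frontal values ran from -0.6478 to 0.2069 for Col1a1 and from -0.8989 to 0.001185 for Col1a2. Frontal minus occipital values ran from -0.1518 to 0.6042 for Col1a2 in WT and from -0.04708 to 0.8076 for Col1a1 in KO. The causes were not tested. The number of arrays and the spread of the type I and III chains between arrays of a group limit what can be seen.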

Other observations

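Some collagens were high on a single E14.5 array, and they were chosen after their values were seen. Col9a3, a chain of the cartilage FACIT type IX, read 7.31, 5.84 and 6.25 in KO and 6.05, 5.81 and 6.33 in WT. Col17a1, a transmembrane collagen of skin attachment, read 5.09, 3.93 and 3.97 in KO and 3.98, 3.96 and 3.62 in WT. Both had their highest level on KO replicate 1. On that array the mean of 5 cartilage and bone markers was also highest, at 5.225, 4.348 and 4.193 in KO and 4.258, 4.285 and 4.277 in WT. Among them Matn1, a cartilage matrix protein, read 4.85, 3.56 and 3.50 in KO and 3.45, 3.53 and 3.63 in WT. Col11a1, a fibrillar chain found with cartilage collagen, was highest on another array, at 5.02, 6.26 and 4.74 in KO and 4.65, 4.63 and 4.82 in WT. Its probe set not used here had means of 4.149 in KO and 4.157 in WT (-0.007). The part of adjacent tissue in these values was not tested.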
